A study of Mus musculus with 26 samples.

Results

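The numbered zinc finger genes from Zfp100 to Zfp599 were examined for 5-hydroxymethylcytosine (5hmC) in their RNA. Members were the protein-coding genes of the mouse annotation GENCODE M1 (build mm9) whose symbol is Zfp followed by exactly 3 digits in that range. There were 153 such genes with 152 symbols (Zfp319 is listed at 2 adjacent loci) among 22380 coding genes. The rule rested on the symbol and used no measured value, but it was set with earlier results of these data known. Of the 153 genes, 58 (37.9%) held a 5hmC peak in at least 1 library and 95 held none, beside 7200 of all coding genes (32.2%).

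The libraries came from hMeRIP-seq, in which RNA fragments that bind an antibody against 5hmC are sequenced, in mouse embryonic stem cells (ESC) and embryoid bodies (EB). WT ESC, TKO ESC (knockout of Tet1, Tet2 and Tet3) and WT EB (wild-type stem cells cultured for 4 days without LIF, the cytokine that maintains them) had 3 libraries each. Tet2 knock-in ESC carry a Flag-tagged Tet2 at its own locus, Tet2deltaRBD knock-in ESC carry the tagged protein without its RNA-binding domain, and these groups had 2 libraries each. Tet enzymes oxidise 5-methylcytosine to 5hmC. The knock-in lines carry a tag that WT ESC lack, and their main comparison was with each other. They were grown from picked clones, the number of which is not given in the sources used here, and the study describes its hMeRIP-seq libraries as independent experiments.

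Zfp genes encode C2H2 zinc finger proteins, in which a cysteine pair and a histidine pair hold a zinc ion and each finger touches a few bases of DNA or RNA. In many of them a tandem array of fingers is encoded by a single large exon and joined to a KRAB domain, which recruits Trim28, Setdb1 and the HP1 proteins to silence transposable elements. Others are broadly expressed regulators of transcription, RNA processing, translation or ubiquitin-like modification. The number in a symbol does not state a function. Genes with neighbouring numbers can lie close together, as Zfp455 to Zfp459 do on chromosome 13.

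A finger was counted in the translated annotation as cysteine, 2 to 4 residues, cysteine, 12 residues, histidine, 3 to 5 residues, histidine. This pattern matched in 146 of the 153 genes, with a median of 9 fingers and up to 37. The exons that hold it are called zinc finger exons below. Of the remaining 7 genes, only Zfp330 held a peak.

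A peak here is an interval of 200 bases centred on a summit, and fold enrichment is the ratio of the immunoprecipitated (IP) library over its input at the summit. The lists held between 498 peaks (WT EB replicate 1) and 10383 peaks (Tet2 knock-in ESC replicate 1), so a gene without a peak is a gene in which no peak passed the authors' threshold. Read depth and RNA level are unknown, and more 5hmC per molecule cannot be told apart from more RNA. For the knock-in libraries no fold enrichment was used. The sample descriptions of replicate 1 begin with 1608 in WT ESC and TKO ESC and with 1610 in WT EB, whereas those of replicates 2 and 3 begin with 1703, and replicate 1 had the shortest list of each of these groups. Peaks in Tet1, Tet2 or Tet3 do not measure expression, so the lists cannot check the knockout label. Of 9 pluripotency genes found in the annotation (among them Pou5f1, Sox2, Nanog and Esrrb), 6 held a peak in some library, and of 9 early differentiation genes 2 did, beside 32.2% of all coding genes. Nanog and Klf4 were among those with none, and a peak is no measure of RNA level.

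Many peaks of the zinc finger genes lay in sequence rich in A and G on the strand of the gene. The intervals below show such sequence. They come from the regions found in the most libraries, leaving out Zfp326, whose region reaches into a UTR, and Zfp407, Zfp516, Zfp438 and Zfp532, which are not printed here. All were read from mm9 on the gene strand, 5′ to 3′. In the intervals outside zinc finger exons, capitals mark each unbroken run of at least 8 A or G. Zfp318 (coding sequence, chr17:46547760-46547959, plus strand) encodes a nuclear protein known for the choice between IgM and IgD transcripts in B cells. Zfp462 (intron, chr4:54977117-54977316, plus strand) encodes a large chromatin protein of stem cells, Zfp148 (intron, chr16:33397260-33397459, plus strand) encodes a GC-box binding factor, and Zfp568 (intron, chr7:30801383-30801582, plus strand) encodes a KRAB protein that silences a placental Igf2 transcript.
Zfp318: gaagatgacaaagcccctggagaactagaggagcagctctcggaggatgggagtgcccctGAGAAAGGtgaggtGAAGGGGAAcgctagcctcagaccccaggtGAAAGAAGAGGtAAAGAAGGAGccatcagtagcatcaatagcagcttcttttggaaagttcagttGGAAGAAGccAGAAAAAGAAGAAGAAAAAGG
Zfp462: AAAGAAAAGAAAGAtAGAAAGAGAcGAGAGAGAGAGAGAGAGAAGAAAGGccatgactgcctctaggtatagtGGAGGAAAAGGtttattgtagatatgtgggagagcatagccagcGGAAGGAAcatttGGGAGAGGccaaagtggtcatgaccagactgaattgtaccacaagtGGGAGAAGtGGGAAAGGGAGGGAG
Zfp148: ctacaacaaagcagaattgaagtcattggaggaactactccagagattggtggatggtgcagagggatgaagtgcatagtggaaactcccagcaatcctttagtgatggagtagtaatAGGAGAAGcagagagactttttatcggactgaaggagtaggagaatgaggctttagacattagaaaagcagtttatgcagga
Zfp568: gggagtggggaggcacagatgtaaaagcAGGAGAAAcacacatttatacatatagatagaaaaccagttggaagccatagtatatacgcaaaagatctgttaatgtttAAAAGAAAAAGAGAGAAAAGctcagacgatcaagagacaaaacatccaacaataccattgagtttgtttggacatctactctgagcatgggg

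C and T made up 31.0% of the Zfp318 interval, 25.5% of the Zfp462 interval and 35.5% of both the Zfp148 and the Zfp568 interval. In the regions left out, which were found in 8 or more libraries, the mean share of C and T was 32.7% in Zfp407 and 32.2% in Zfp532, but 46.2% in Zfp516, 48.9% in Zfp438 and 49.55% in Zfp326, so the intervals printed are richer in A and G than some of those left out. The printed Zfp462 interval also holds a GA tandem repeat. Another intronic Zfp462 interval (chr4:54968956-54969155, region in 6 libraries) was not printed either, and C and T made up 48% of it.

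The zinc finger exons gave another set of intervals. Zfp292, a large protein that binds the growth hormone promoter, carried a pair of neighbouring regions in its last, finger-coding exon (chr4:34753144-34753343 and chr4:34752850-34753049, minus strand). Zfp534 (chr4:147049077-147049276 and chr4:147048465-147048664, minus strand) is an array gene in which capitals mark GANAANCC, the letters of the Glu-Lys-Pro codons in the linker between fingers. In the Zfp292 and Zfp428 intervals, which hold no GANAANCC, capitals again mark runs of A and G. Zfp428 (chr7:25300149-25300348, plus strand) is shown as the interval of the set with the most C and T, 50.5%.
Zfp292 (upstream): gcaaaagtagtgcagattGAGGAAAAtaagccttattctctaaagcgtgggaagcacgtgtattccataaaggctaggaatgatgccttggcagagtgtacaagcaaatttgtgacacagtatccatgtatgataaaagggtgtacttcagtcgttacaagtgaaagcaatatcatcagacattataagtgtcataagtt
Zfp292 (downstream): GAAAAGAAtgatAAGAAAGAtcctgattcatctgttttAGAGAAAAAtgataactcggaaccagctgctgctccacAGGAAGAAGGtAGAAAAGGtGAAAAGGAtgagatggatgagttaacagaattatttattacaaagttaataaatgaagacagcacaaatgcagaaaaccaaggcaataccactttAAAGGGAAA
Zfp534 (upstream): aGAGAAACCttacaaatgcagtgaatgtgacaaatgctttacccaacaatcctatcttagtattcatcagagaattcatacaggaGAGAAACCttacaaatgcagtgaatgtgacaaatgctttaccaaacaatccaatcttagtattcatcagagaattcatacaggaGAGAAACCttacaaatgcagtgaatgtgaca
Zfp534 (downstream): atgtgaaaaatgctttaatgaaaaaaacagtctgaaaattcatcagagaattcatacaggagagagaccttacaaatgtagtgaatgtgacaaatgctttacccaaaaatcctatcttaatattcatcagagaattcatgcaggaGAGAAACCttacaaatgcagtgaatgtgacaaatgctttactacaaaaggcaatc
Zfp428: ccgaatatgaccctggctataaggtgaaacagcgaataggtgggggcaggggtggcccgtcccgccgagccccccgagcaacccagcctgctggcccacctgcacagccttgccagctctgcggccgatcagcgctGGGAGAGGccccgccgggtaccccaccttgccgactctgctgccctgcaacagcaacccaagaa

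Both Zfp292 regions consisted of 50-base words that occur at 1 place in the genome. In Zfp534 this was not so. Of the words of the region around the first Zfp534 interval 89.5% occur more than 1 time in the genome, up to 51 times, and of those around the second 44.6%. Peaks of Zfp534 can therefore hold reads from paralogs and are uncertain. Across the 160 regions of these genes (overlapping intervals of the 13 libraries joined), 136 held no repeated word and 5 had more than 50% of their words repeated.

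To see how often these genes carried 5hmC, the share of genes with a peak was set beside that of all coding genes in each library. The share of zinc finger genes was above that of coding genes in 12 of 13 libraries, and the distance was small in most of them. It was 10.46%, 15.0% and 12.4% in WT ESC replicates 1, 2 and 3, beside 8.91%, 13.8% and 12.6% of coding genes. TKO ESC gave 3.27%, 10.46% and 7.19% beside 2.61%, 8.36% and 7.14%. WT EB gave 3.92%, 5.23% and 11.8% beside 1.84%, 3.87% and 6.66%. The lowest shares were those of the replicates 1 of TKO ESC and WT EB, which also had the shortest lists.

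The group means of zinc finger genes were 12.6% ± 2.30 for WT ESC, 6.97% ± 3.60 for TKO ESC and 6.97% ± 4.20 for WT EB (SD, n = 3 libraries). The coding genes stood at 11.8% ± 2.54, 6.04% ± 3.03 and 4.12% ± 2.42 in the same libraries. The ratio of zinc finger to coding gene share was 1.08 ± 0.0920 for WT ESC, 1.17 ± 0.140 for TKO ESC and 1.75 ± 0.391 for WT EB, and the ratios of the 3 WT EB libraries were all above those of the 3 WT ESC libraries. With the lists of these 3 groups shortened to 498 peaks this order was lost, with mean ratios of 1.43 for WT ESC and 1.40 for WT EB. For zinc finger genes the highest TKO ESC share equalled the lowest WT ESC share, and the WT EB shares overlapped those of WT ESC. For coding genes every WT ESC share was above every TKO ESC and WT EB share. Within the libraries whose description begins with 1703, the mean zinc finger share was 13.7% for WT ESC, against 8.82% for TKO ESC and 8.497% for WT EB (2 libraries each).

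In the knock-in lines the zinc finger share was 19.6% and 23.5% with Tet2 and 15.7% and 11.1% with Tet2deltaRBD. The coding gene shares were 18.7% and 13.8%, then 11.8% and 10.4%. The remaining numbered zinc finger genes stood below or above by group. In WT ESC, 8.51% ± 3.69 of the 47 genes named Zfp with 1 or 2 digits and 8.10% ± 3.13 of the 144 genes from Zfp600 to Zfp999 held a peak (SD, n = 3). In TKO ESC these shares were 8.51% ± 7.67 and 4.40% ± 2.63, and in WT EB 5.67% ± 3.25 and 3.01% ± 2.81 (SD, n = 3). In Tet2 knock-in ESC they were 20.2% ± 4.51 (SD, n = 2) and 17.4%, the latter the same in both libraries, and in Tet2deltaRBD knock-in ESC 11.7% ± 7.52 and 13.2% ± 3.93 (SD, n = 2). The genes with 1 or 2 digits were thus above Zfp100 to Zfp599 in TKO ESC, and both sets were below in the means of the other groups. The difference from these genes was not tested.

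**Figure D1:**
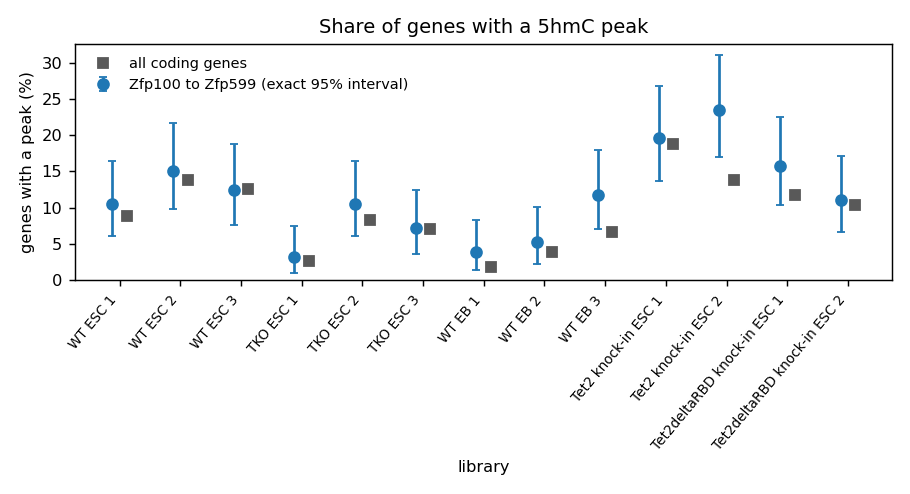
Percent of genes with a 5hmC peak (vertical axis) in each of the 13 libraries (horizontal axis), for the 153 genes Zfp100 to Zfp599 (circles, with exact 95% binomial intervals that cover counting error over genes only) and all 22380 coding genes (squares). Circles lie above squares in 12 of 13 libraries and range from the lowest circle at 3.27% (TKO ESC replicate 1) and the lowest square at 1.84% (WT EB replicate 1) to 23.5% and 18.7% in Tet2 knock-in ESC.

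Peaks were concentrated in few genes. Of the 407 peaks of zinc finger genes, 216 (53.1%) lay in 8 genes: Zfp462 with 45, Zfp148 with 30, Zfp423 and Zfp532 with 29 each, Zfp407 with 24, Zfp292 with 22, Zfp326 with 19 and Zfp318 with 18. Peaks in exactly 1 library were seen for 18 genes, in 2 libraries for 9, in at least 3 for 31 and in at least 8 for 11. The same counts and concentration are not given for all coding genes, so they do not set these genes apart. The genes with peaks had a median span of 26.1 kb and a median of 9 fingers, and those without had 14.0 kb and also 9 fingers. Among the 20 genes in the longest quartile of coding gene spans (above 42.4 kb), 16 held a peak (80.0%), beside 59.8% of all coding genes of that length. Among the 60 genes of the quartile from 15.4 to 42.4 kb the share was 35%, beside 38.9%, and among the 61 of the quartile from 4.68 to 15.4 kb it was 32.8% beside 23.1%.

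The number of fingers gave no such order. A peak was found in 34 of 92 genes with 8 or more fingers (37.0%, beside 36.4% of all coding genes of that kind) and in 23 of 54 with 1 to 7 (42.6%, beside 47.1%). By chromosome, 17 of 39 genes on chromosome 7 held a peak (43.6%, beside 25.5% of its coding genes) and 8 of 9 on chromosome 18 (88.9%, beside 39.5%), where the median span of these genes is 99.1 kb. On chromosome 13 it was 1 of 17 (5.88%, beside 30.3% of its coding genes), at a median span of 15.7 kb. The X chromosome had 5 of these genes and no peak in them, beside 24.03% of its coding genes.

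**Figure D2:**
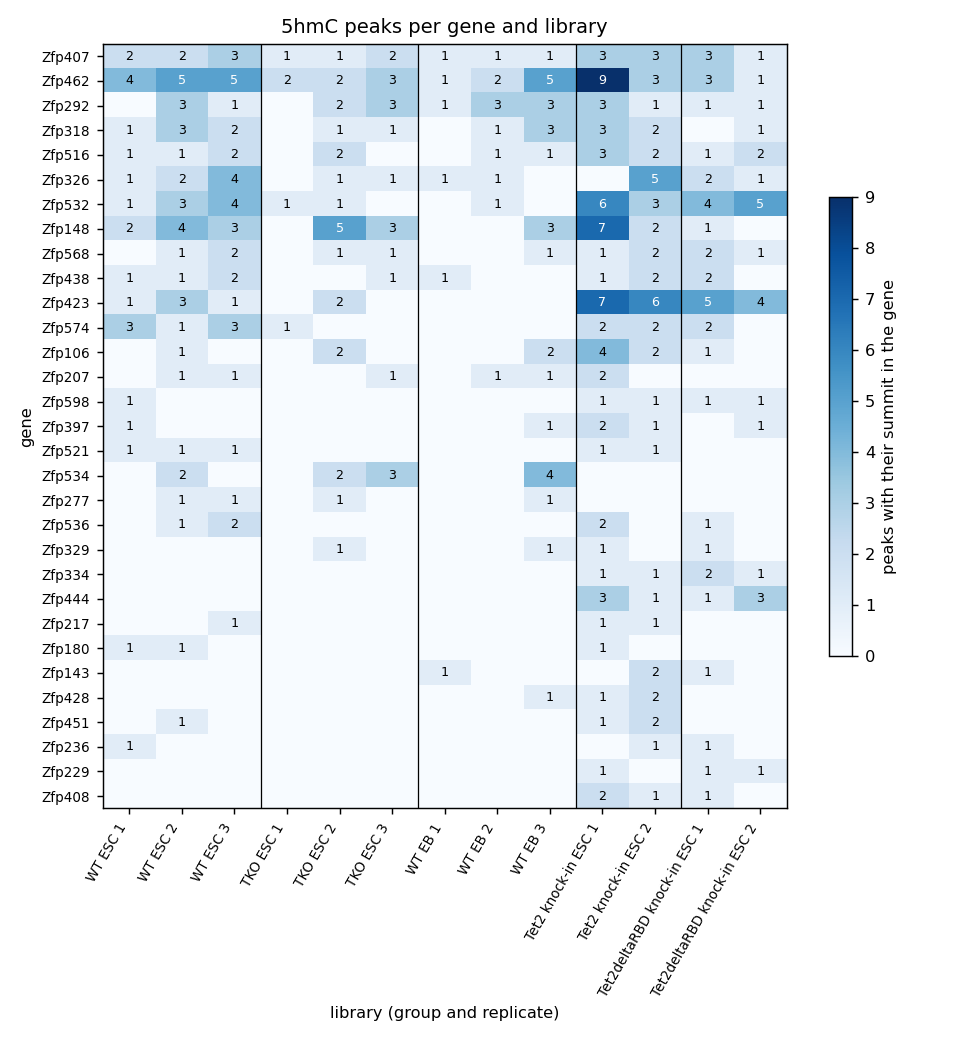
Number of peaks with their summit in the gene (colour and printed number, blank for 0) for the 31 genes with a peak in at least 3 libraries (rows) in the 13 libraries (columns, vertical lines between groups). Zfp407 and Zfp462 are filled in every column, Zfp334 and Zfp444 only in the knock-in columns, and Zfp521 only in WT ESC and Tet2 knock-in ESC.

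The study kept regions observed in all replicates of a group. The criterion here was looser and was applied per gene, as a peak anywhere in the gene in every library of a group. A gene called replicated below can thus have its peaks at different places. Zfp407 and Zfp462 alone of these genes met the criterion in all 5 groups, Zfp407 with a region in all 13 libraries. No region of Zfp462 was in every library of TKO ESC or of WT EB. The same was so, among others, for Zfp326 and Zfp423 in WT ESC and for Zfp292 in WT EB. In WT ESC the criterion was met by 11 of 153 genes (7.19%), beside 4.99% of all coding genes. These were Zfp148, Zfp318, Zfp326, Zfp407, Zfp423, Zfp438, Zfp462, Zfp516, Zfp521, Zfp532 and Zfp574. In TKO ESC it was met by Zfp407 and Zfp462 (1.31%, beside 1.34%), and in WT EB by these and Zfp292 (1.96%, beside 0.626%). Tet2 knock-in ESC gave 22 genes (14.4%, beside 10.3%) and Tet2deltaRBD knock-in ESC 12 genes (7.84%, beside 5.91%).

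WT ESC and TKO ESC were compared to see which transcripts carry peaks that go with Tet. Of the 11 genes replicated in WT ESC, 1 (9.09%) lacked a peak throughout TKO ESC, beside 21.1% of the coding genes replicated in WT ESC. This was Zfp521, a many-fingered regulator of neural and blood progenitors. Its intronic region (chr18:14080293-14080836) had fold enrichments of 5.64, 6.07 and 4.32 in WT ESC, beside coding gene medians of 6.24, 5.84 and 5.66. The region was absent from TKO ESC and WT EB, and was found in both Tet2 knock-in libraries and in neither Tet2deltaRBD library. C and T made up 73.3% of its intervals, it held a tandem repeat, and 25.3% of its words recur in the genome. The lists of TKO ESC (964, 4323 and 3262 peaks) and WT EB (498, 1831 and 3532 peaks) were shorter than those of WT ESC (4395, 7113 and 6499 peaks). The part of list length in such absences was not tested. Without WT ESC replicate 1, 2 or 3 the count of such genes was 2 of 16, 2 of 12 and 2 of 12, beside 29.1%, 28.8% and 27.1% of coding genes. Without TKO ESC replicate 1, 2 or 3 it was 2, 3 and 2 of 11, beside 25.2%, 29.7% and 30.3%. In the reverse direction it was 0 of the 2 genes replicated in TKO ESC, beside 1.34% of coding genes.

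WT ESC and WT EB were compared to follow 5hmC through differentiation. Of the same 11 genes, Zfp423, Zfp521 and Zfp574 (27.3%) had no peak in any WT EB library, beside 41.3% of coding genes. Zfp423, which commits cells to the fat lineage and is a close relative of Zfp521, had its highest fold enrichments at separate regions. An intronic region 281 kb from the gene start had 4.92 and 6.07 in WT ESC replicates 1 and 2. A UTR region at 0.253 kb had 3.69 in WT ESC replicate 3, and an intronic region at 59.1 kb had 10.1 in TKO ESC replicate 2. Zfp574 had 7.02, 9.60 and 10.46 in WT ESC and 5.33 in TKO ESC replicate 1. Its 3 regions lay 0.180, 0.571 and 1.81 kb from the annotated start of the gene, the first of them in the UTR and present in all 3 WT ESC libraries. Of the 3 genes replicated in WT EB none lacked a peak in WT ESC, beside 1.43% of coding genes. These comparisons share the WT ESC libraries.

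The knock-in lines were compared to see which peaks go with the RNA-binding domain of Tet2. Of 22 genes replicated in Tet2 knock-in ESC, 5 (22.7%) had no peak in either Tet2deltaRBD library, beside 23.9% of coding genes. They were Zfp217, a Lsd1-CoREST partner that is amplified in tumours, Zfp428, Zfp451, a SUMO ligase, Zfp507 and Zfp521. None of the 12 genes replicated in Tet2deltaRBD knock-in ESC lacked a peak in the Tet2 lines, beside 8.31% of coding genes. With 2 libraries a group, these counts moved when a library was left out. Without Tet2 knock-in replicate 1 or 2 the first direction gave 14 of 36 and 9 of 30 genes, beside 33% and 42.9% of coding genes. Without Tet2deltaRBD replicate 1 or 2 it gave 10 of 22 and 7 of 22, beside 50% and 31.7%. The reverse direction gave 1 or 2 genes of 12 to 24, beside 15.7% to 26.9%. The Tet2deltaRBD lists (4639 and 3318 peaks) were shorter than the Tet2 lists (10383 and 5781 peaks), and the part of list length in these counts was not tested.

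Peaks in the knock-in libraries and in none of the other 9 were seen for 19 genes (12.4%, beside 9.05% of coding genes), in the other 9 alone for 11 genes (7.19%, beside 5.75%), and in both for 28 (18.3%, beside 17.4%). Of the 19, Zfp334 and Zfp444 had a peak in all 4 knock-in libraries. In Zfp334 this was a UTR region 0.144 kb from the gene start, and in Zfp444 a coding region (chr7:6135546-6135898). Zfp423 had 7 and 6 peaks with Tet2, 5 and 4 with Tet2deltaRBD, and between 0 and 3 in the other libraries. Its region in all 4 knock-in libraries and no other (chr8:90423575-90423800) holds a tandem repeat, and 76.3% of its words recur in the genome, so its peaks are uncertain. The knock-in libraries carry no description prefix and no fold enrichment, and line and library set cannot be told apart here.

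Fold enrichment of the 206 peaks of zinc finger genes that have a value ran from 3.28 to 34.9, with a median of 6.60. Values of 10 or more made up 16.5% of them, beside 16.6% of the peaks of all coding genes. The median per library was 6.43 ± 0.411 for WT ESC, 7.22 ± 1.23 for TKO ESC and 6.33 ± 0.535 for WT EB (SD, n = 3), beside 5.92 ± 0.298, 6.68 ± 0.595 and 6.63 ± 1.04 for coding genes. It was above the coding gene median in 6 of 9 libraries, among them all 3 of WT ESC. Medians of the peaks that passed a threshold are a description of those peaks and not of the genes without one.

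Zfp407 held the region found in the most libraries. This intronic region on the minus strand (chr18:84690122-84690628), 68.7 kb from the gene start, had a peak in all 13 libraries. Its fold enrichment was 14.7, 27.4 and 26.4 in WT ESC, 8.05, 8.87 and 6.63 in TKO ESC, and 8.15, 10.6 and 9.22 in WT EB. All WT ESC values were above all TKO ESC and WT EB values, in replicates 2 and 3 (1703) as well as in replicate 1. Means ± SD (n = 3) were 22.8 ± 7.08 for WT ESC, 7.85 ± 1.13 for TKO ESC and 9.31 ± 1.21 for WT EB. The difference of mean log2 fold enrichment was 1.49 against TKO ESC and 1.25 against WT EB, each with p = 0.1 in a two-sided exact permutation test (adjusted p = 0.1 over the 2 tests), the smallest p that 3 against 3 allows. No further test was made, as no other region of these genes had a peak in every library of both groups. C and T made up 32.7% of its intervals, and 9.83% of its words recur in the genome. A further Zfp407 region (chr18:84662225-84662617) had peaks in 5 libraries.

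Zfp462 had 16 regions, of which 6 were found in at least 4 libraries. The intronic region printed above, 19.3 kb from the gene start, had values of 10.2, 8.79 and 11.3 in WT ESC, 8.84 in TKO ESC replicate 3, and 4.68 and 5.18 in WT EB replicates 2 and 3. Its WT ESC values were all above both WT EB values. Another region near the 3′ end of the gene, in the UTR 136 kb from the start, had 5.37, 11.1 and 6.34 in WT ESC, a peak in 1 Tet2 knock-in library, and none in TKO ESC, WT EB or Tet2deltaRBD knock-in ESC. An intronic region at 18.3 kb was in no WT ESC library and had 6.19 and 6.25 in WT EB replicates 2 and 3. The regions of this gene thus differed in the groups that held them.

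Zfp292 had the highest single value of these genes. Its upstream region in the finger exon had 9.94 and 12.7 in WT ESC replicates 2 and 3, 30.0 and 10.9 in TKO ESC replicates 2 and 3, 14.3 and 34.9 in WT EB replicates 2 and 3, and no peak in replicate 1 of these groups. Its downstream region had 4.77 in WT ESC replicate 2, 12.7 and 6.65 in TKO ESC, and 8.62 and 20.8 in WT EB. Both regions were in 1 Tet2 knock-in library and in no Tet2deltaRBD library. TKO ESC and WT EB values reached above those of WT ESC here, with 10.9 in TKO ESC inside the WT ESC range.

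Zfp318 had its higher values outside WT ESC. Its coding region printed above had 6.32, 3.56 and 4.21 in WT ESC, 10.0 and 7.70 in TKO ESC replicates 2 and 3, and 15.7 in WT EB replicate 3. A neighbouring coding region (chr17:46549447-46549673) had 4.22 and 5.18 in WT ESC, 9.20 and 15.4 in WT EB and no peak in TKO ESC. In each of these Zfp318 regions every TKO ESC or WT EB value lay above every WT ESC value. A library without a peak has no value, so these differences were not tested.

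Zfp148 had 9 regions, 8 of them in introns. The region printed above had 8.22 and 8.64 in WT ESC, 14.0 and 6.94 in TKO ESC and 8.30 in WT EB, values that overlap. A region 15.4 kb from the gene start had 5.32 and 6.98 in WT ESC and 15.1 and 14.7 in TKO ESC replicates 2 and 3. A region at 0.588 kb was in all 3 WT ESC libraries, at 4.39, 5.96 and 8.63, and in TKO ESC replicate 3 at 5.37. TKO ESC values were thus above WT ESC at 15.4 kb and within or around the WT ESC range in the other 2 of these regions.

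Zfp516, a factor of brown fat, had an intronic region (chr18:83160060-83160312) in 10 libraries, with 6.92, 16.01 and 6.10 in WT ESC, 7.41 in TKO ESC replicate 2 and 6.93 and 5.87 in WT EB. Zfp438 had an intronic region in 8 libraries, with 7.33, 13.9 and 9.64 in WT ESC, 4.93 in TKO ESC replicate 3 and 6.34 in WT EB replicate 1. Zfp532 had 15 regions, the main one in all WT ESC libraries at 7.02, 6.65 and 8.24 and in TKO ESC replicate 1 at 5.05. In Zfp438 and Zfp532 the WT ESC values were above the single values of the other groups, and in Zfp516 they were not. Zfp532 is uncertain, with 34.6% of the words of that region repeated.

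Zfp326, a subunit of the DBIRD complex that links transcription to splicing, had its main region at the gene start (UTR and intron), with 6.43 and 15.5 in WT ESC, 7.79 in TKO ESC and 4.53 and 6.99 in WT EB. Zfp568 had 8.59 and 13.5 in WT ESC and 10.0 and 7.54 in TKO ESC replicates 2 and 3 in the intron printed above, and no WT EB peak there. Zfp384, at 18.6 in TKO ESC replicate 3 in a zinc finger exon, was among the 5 genes with the highest single values and had no other peak.

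**Figure D3:**
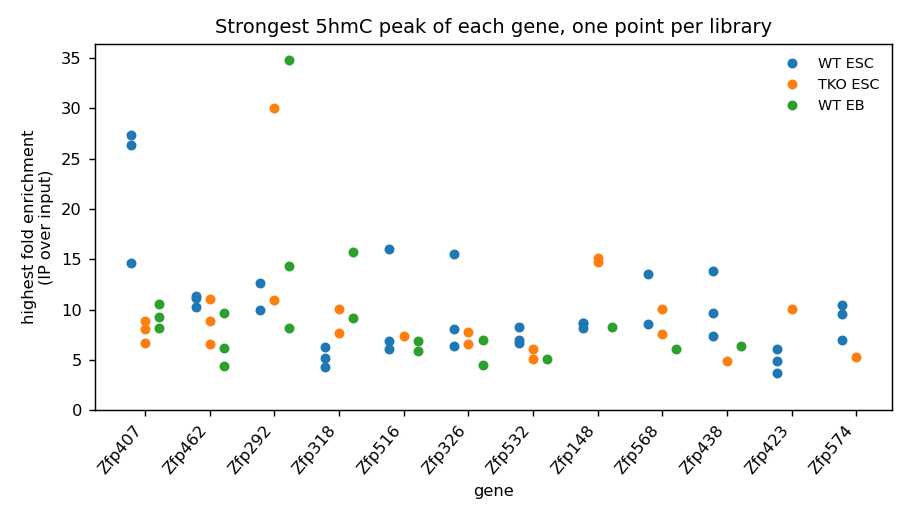
Highest fold enrichment (IP over input, linear scale, vertical axis) of each of the 12 genes with peaks in most libraries (horizontal axis), 1 point per library with a peak, coloured by group (WT ESC, TKO ESC, WT EB). Points of a gene can come from different regions. In Zfp407 the 3 WT ESC points (14.7 to 27.4) lie above the other 6 (6.63 to 10.6), whereas in Zfp318 they lie below and in Zfp292 the highest points are TKO ESC (30.0) and WT EB (34.9).

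Of the genes with well-known functions, several held few peaks or none. Zfp207, which brings Bub3 to kinetochores, had a peak in 6 libraries, Zfp106, an RNA-binding protein of motor neurons and muscle, in 6, and Zfp598, the ubiquitin ligase that senses collided ribosomes, in 5. The coding region of Zfp598 (chr17:24816701-24816921) was in WT ESC replicate 1 at 7.63 and in all 4 knock-in libraries. Zfp143, an activator that binds promoters, had a peak in 3 libraries, and the stem cell factors Zfp219 and Zfp296 had 1 each, in a Tet2 knock-in library. Zfp281, a pluripotency regulator, Zfp445, which protects imprints, Zfp335, Zfp346, a double-stranded RNA binder, and Zfp503 had no peak in any library.

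The peaks were then placed in the parts of each gene. Introns held 260 of the 407 peaks (63.9%), other coding sequence 47, other UTR 43, the coding part of zinc finger exons 43 and their UTR part 14. For all coding genes the intronic share was 67.9%. Introns make up 87.2% of the length of the zinc finger genes, and they held 4.62 peaks per Mb and library, beside 2.64 in the introns of all coding genes. Intronic peaks lay at a median of 4.32 kb from the nearest exon, beside 1.62 kb for coding genes, and 44.8% of those placed in the longest coding transcript were in its first intron, beside 28.2%. Many of the first-intron peaks lay in Zfp462 and Zfp148, and Zfp462 held 37 of the 260 intronic peaks. These values without the 2 genes are not given, so they can rest on few genes.

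Exons outside the finger arrays were the densest. Other coding sequence held 38.1 peaks per Mb and library, beside 24.6 for all coding genes. Of its 47 peaks 18 were in Zfp318, and without that gene the density was 25.2. Other UTR held 27.7, beside 9.73, and 24.02 without Zfp106, the gene with most of these peaks. The coding part of zinc finger exons, with 4.55% of the length of these genes against 1.91% for other coding sequence, held 14.6 peaks per Mb and library, beside 18.8 for the zinc finger exons of all coding genes. Of its 43 peaks, 16 were in Zfp292 and 10 in Zfp534, and without these 2 genes the density was 6.02. The middle of a finger lay within 25 intervals from 8 genes, 9 each in Zfp292 and Zfp534, 2 in Zfp428 and 1 each in Zfp105, Zfp213, Zfp260, Zfp451 and Zfp532. The UTR part of zinc finger exons held 5.48 peaks per Mb and library, beside 6.24, and 4.01 without Zfp329, near the introns at 4.08 without Zfp462.

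**Figure D4:**
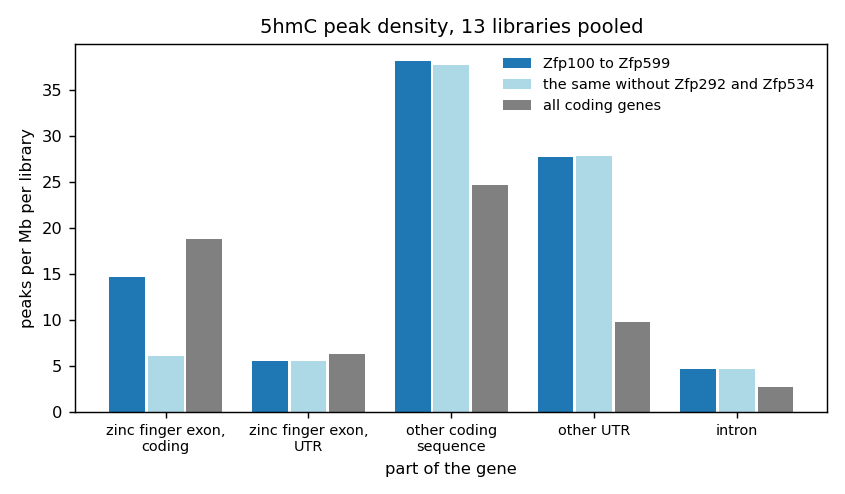
Peaks per Mb and library (vertical axis, from 0), pooled over 13 libraries with no error bar, in 5 parts of the gene (horizontal axis) for Zfp100 to Zfp599, the same without Zfp292 and Zfp534, and all coding genes. The bar of the coding part of zinc finger exons falls from 14.6 to 6.02 without the 2 genes, whereas those of the other parts keep nearly the same height.

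By group, zinc finger exons (coding and UTR parts together) held 6.33% ± 1.71 of the peaks of these genes for WT ESC, 18.1% ± 17.5 for TKO ESC and 21.6% ± 19.4 for WT EB (SD, n = 3). The SD within TKO ESC and WT EB was nearly as large as the mean, and replicate 1 of both had 0 such peaks. Without Zfp292 and Zfp534 the shares were 3.12% for WT ESC, 3.90% for TKO ESC and 6.67% for WT EB, so that these 2 genes held most of the zinc finger exon peaks of TKO ESC and WT EB. In the knock-in lines the coding part held 7 peaks in each Tet2 library and 0 in each Tet2deltaRBD library. The 14 Tet2 peaks came from 11 genes, among them Zfp106, Zfp148, Zfp292, Zfp296, Zfp428, Zfp438, Zfp451 and Zfp532. This was 10.4% of the 134 Tet2 peaks of these genes. In Tet2deltaRBD 0 of 67 peaks lay there, which allows a share of up to 4.48% (3 counts, counting error only, with both libraries pooled). The zinc finger exons of all coding genes held 42 of 14093 peaks (0.298%) with Tet2 and 22 of 7327 (0.300%) with Tet2deltaRBD. By library this was 0.241% and 0.391% with Tet2 and 0.120% and 0.539% with Tet2deltaRBD. The Tet2deltaRBD lists were shorter, and the difference between the lines was not tested.

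C and T made up on average 41.2% of the 407 intervals of zinc finger genes, beside 41.8% for all coding genes. All windows of the same 200-base length in the introns of these genes held 51.6% and those in their exons 49.0%. The intronic intervals alone stood at 40.8% and those of zinc finger exons at 41.5%, beside 46.9% for all windows of these exons. Intervals with at most 35% of C and T were 27.5% of those of zinc finger genes, beside 24.4% of those of all coding genes and 1.66% of intron windows. In all 13 libraries the mean was below 50%, and by group it ran from 40.0% ± 1.09 (SD, n = 3) in TKO ESC to 42.5% ± 0.702 (SD, n = 3) in WT ESC. Against intron windows the intervals held more G, 31.5% to 22.4%, and less T, 23% to 30.2%.

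**Figure D5:**
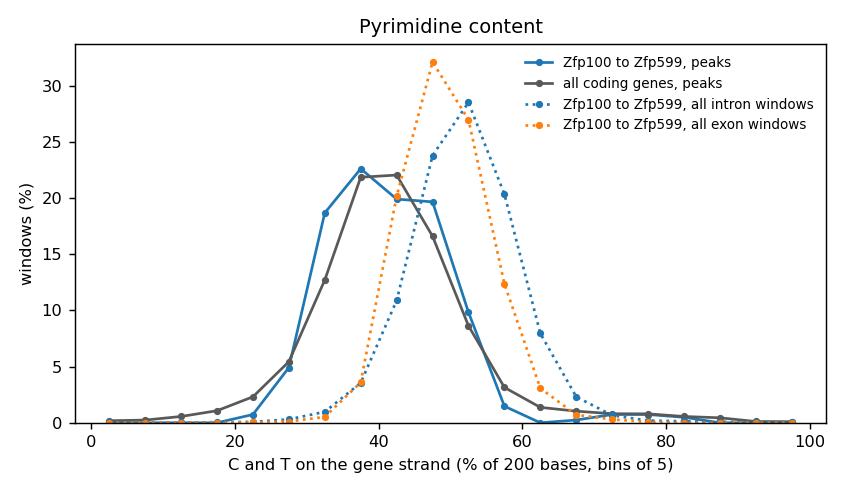
Percent of windows (vertical axis) by the share of C and T on the gene strand (horizontal axis, bins of 5) for the 407 peak intervals of Zfp100 to Zfp599, the intervals of all coding genes, and all 200-base windows of the introns and exons of Zfp100 to Zfp599. Both peak curves lie to the left of both window curves, around means of 41.2% and 41.8% against 51.6% and 49.0%.

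Runs of at least 8 A or G stood on the gene strand of 77.1% of the intervals, beside 77.3% for all coding genes and 51.1% of intron windows. Runs of C or T did so in 26.3%, beside 34.3% and 60.4%. The motif GGAGGA was on the gene strand in 24.8% of intervals (20.05% for coding genes, 7.76% of intron windows) and on the other strand in 2.21%. GAAGAA was on the gene strand in 16.2% (21.8% and 8.36%) and on the other strand in 1.72%. The pyrimidine motifs TCTTCT and CTCCTC were on the gene strand in 2.21% and 1.47% of intervals, beside 5.503% and 4.74% for coding genes and 12.9% and 7.68% of intron windows, and on the other strand in 24.3% and 22.4%. Runs and motifs of this kind overlap each other. Pyrimidine-rich intervals, with at least 65% of C and T, were 2.21% of the total, beside 3.85% for coding genes. They lay in Zfp521 (5 intervals), Zfp423 (2) and Zfp536 (2).

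GANAANCC was found on the gene strand in 27.9% of the intervals in the coding part of zinc finger exons, beside 44.1% of all windows there, and on the other strand in 2.33%. Over all intervals it was in 7.13%, beside 5.38% for coding genes. Tandem repeats lay in 8.11% of intervals, beside 7.45% for coding genes and 5.76% of intron windows.

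Other genes of the KRAB zinc finger repression pathway were read from a list of 15 genes. The list was chosen with earlier results of these data known, and was not matched to coding genes in length or RNA level. Peaks in at least 1 library were found for 14 of them, beside 32.2% of coding genes, and Dnmt3a had none. In every library of WT ESC 4 of the 15 had a peak (Atrx, Cbx1, Cbx5 and Hdac2, beside 4.99% of coding genes), and in every TKO ESC library 2 (Atrx and Cbx5, beside 1.34%). The count was 1 (Atrx, beside 0.626%) in every WT EB library, 8 (beside 10.3%) in both Tet2 libraries and 5 (beside 5.91%) in both Tet2deltaRBD libraries. Atrx, the remodeller that places histone H3.3 at silenced repeats, had 121 peaks over 13 libraries, with fold enrichment up to 31.2. The HP1 genes Cbx5, Cbx1 and Cbx3 had peaks in 12, 10 and 10 libraries. Trim28, the corepressor that KRAB domains bind, had peaks in 1 Tet2deltaRBD library only, and Setdb1, its histone methyltransferase, in 4 libraries.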

How the data were processed

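Total RNA was immunoprecipitated with an anti-5hmC antibody and sequenced from 13 IP libraries, each with an input that entered only through peak calling. The authors filtered out reads of low complexity and of rRNA or tRNA (Bowtie2), trimmed the rest (Trimmomatic) and aligned them to mm9 with RefSeq transcripts (STAR). MACS2 then compared every IP library with its matched input at a q-value threshold of 0.05. Versions and read length are not given in the sources used here. Peaks were resized by the authors to 100 bases on each side of the summit. The deposited lists give positions (other), and for 9 of 13 libraries a fold enrichment of IP over input, a ratio computed by the authors' peak caller. Reads were not used, so depth is unknown and precision is limited by the number of libraries.

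From these lists, summits (interval midpoints) were placed in coding gene spans of GENCODE M1 on NCBIM37, the assembly behind mm9. A summit in 2 genes counted for both, as was so for 10 peaks of the zinc finger genes. Exons are those of coding transcripts, all else in a span is intron, and strand of the reads was not used, so antisense transcripts cannot be told apart. Shares are given as mean ± SD over libraries, with exact 95% binomial intervals in the plot of shares. A fold enrichment was tested only for regions with a peak in every library of both groups, by exact permutation of log2 values with Benjamini-Hochberg adjustment. Tandem repeats were units of 1 to 4 bases repeated over 18 bases or more (20 for units of 4), and 50-base words were counted on both strands. Python 3.11.15, pandas 2.3.3, numpy 2.4.6, scipy 1.17.1, pysam 0.24.0 and samtools 1.23.1 were used. Calls were tested on simulated data.

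The named genes are the 12 with peaks in most libraries, those with peaks in every library of a group and none of the compared group, the 5 with the highest single fold enrichment, and genes with well-known functions (Zfp131 was not found under that symbol). The sequence rule was the regions present in the most libraries, up to 8 in zinc finger exons and 5 elsewhere. Regions on chromosome 18 or reaching into a UTR were passed over, and 5 and 4 of the rest are printed. Genes and regions named beyond these were chosen after their values were seen. The members and the lists were chosen with earlier results of these data known. Alternatives were an overlap of 1 bp, peaks above their list's median, lists of equal length, summits in 1 coding gene, exons with at least 3 fingers, shorter windows, intervals without tandem repeats, the replicate block, leaving out each library, and, chosen after seeing the data, leaving out Zfp292 and Zfp534 or the gene with most peaks in a part.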

Additional observations from a re-analysis of the deposited data

How the results depend on the processing

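Of 196 recomputed values, 164 stayed within the spread between replicates, within 1.5 times for counts, or on the same side of the threshold. Lists shortened to the 498 peaks of the shortest gave zinc finger shares of 2.18% for WT ESC, 1.96% for TKO ESC and 2.18% for WT EB, and the ratio to coding genes was 1.43 for WT ESC, 1.32 for TKO ESC and 1.40 for WT EB, so that the higher ratio of WT EB was lost. Peaks above the median of their own list gave a share of 9.80% in WT ESC and 3.05% in WT EB, and ratios of 1.43 for WT ESC, 1.58 for TKO ESC and 1.56 for WT EB. Genes replicated in WT ESC and absent from TKO ESC numbered 3 of 8 with peaks above the median, 4 of 18 when 2 of 3 replicates sufficed and 3 of 16 among the 1703 libraries (25.7%, 35.3% and 31.8% of coding genes). Those absent from WT EB numbered 6 of 18 and 5 of 16 under the last 2 settings (54.6% and 53.2%). The counts without any 1 library ranged from 2 to 3 for WT ESC against TKO ESC, from 7 to 14 for Tet2 against Tet2deltaRBD and from 1 to 2 in reverse. Exons with at least 3 fingers held 11.4% of peaks in Tet2 knock-in ESC, down from 15.9% for all zinc finger exons (coding and UTR parts together). Leaving out Zfp292 and Zfp534, chosen after seeing the data, lowered the zinc finger exon share to 3.12% in WT ESC, from 18.1% to 3.90% in TKO ESC and from 21.6% to 6.67% in WT EB. C and T made up 43.6% in WT ESC and 40.9% in Tet2 knock-in ESC in the central 100 bases, and 43.4% and 41.0% without tandem repeats. The cause of these moves was not tested, apart from the shorter lists. With the replicate block the Zfp407 differences of 1.49 and 1.25 had an exact p of 0.25, the smallest that 3 pairs allow. Same-numbered libraries correlated at 0.123, 0.0914 and 0.0199 for WT ESC with TKO ESC and at 0.0462, 0.00460 and -0.0180 for WT ESC with WT EB (deviations of gene presence). Differently numbered libraries ran from -0.105 to 0.00960 for WT ESC with TKO ESC and from -0.0413 to 0.0375 for WT ESC with WT EB. Every same-numbered value was thus above every other one for TKO ESC, but not for WT EB. The main test did not pair the libraries, and the replicate block gives the paired form.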
